A study of Triticum aestivum with 4 samples.

Results

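Avenin-like proteins are storage proteins of the wheat grain, and their transcripts were followed here in seed at a stage before storage protein fills the endosperm. The avenin-like genes on the wheat GeneChip were the avenin-like b gene (LOC100125692, with avnlb and ALP among its synonyms) and the avenin-like a gene (LOC780582, synonym avnla). Their probe sets were found by ID and by gene. The IDs that begin with Ta.27777. or Ta.905. gave 5 probe sets, and the platform annotation added 1 more, Ta.27712.1.S1_at. This made 6 of 61115 wheat probe sets, 4 for avenin-like b and 2 for avenin-like a.

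The seed came from RL4452 and AC Domain, the parents of a mapping population of bread wheat, and was taken 5 days after anthesis from plants grown in the field. RL4452 had 2 biological replicates and AC Domain had 2, with 1 array per replicate and poly(A) RNA from whole seed. No treatment was applied to either genotype. Because whole seed was ground, fewer cells of a type and less RNA per cell cannot be told apart.

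Avenin-like proteins belong to the prolamins, the family of the gliadins and glutenins, and take their name from the avenins of oat. They are rich in cysteine, and those of the b type are known for taking part in the disulphide-linked glutenin polymers of dough. Prolamin genes are transcribed in the starchy endosperm, mostly during grain filling.

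Median intensity on the 4 arrays ran from 31.9 to 33.7. As background served 23 negative control probe sets, which match no wheat transcript by design. Their values over the 4 arrays ran from 2.68 to 4.93 on the log2 scale, with a median of 3.55, and their 95th percentile, 4.48 (an intensity of 22.3), is called the control level here. Of all wheat probe sets, 59.4% had a mean above it. The arrays of replicate 1 were run under one project name and those of replicate 2 under another, and the RL4452 replicate 2 array has a wash record marked as aborted, with 0 wash settings listed. The control for 18S rRNA read 191 and 432 on the RL4452 arrays, against 2586 and 1914 on the AC Domain arrays. The 3' control of sucrose synthase read 2460 and 2169 in RL4452, against 4572 and 4176 in AC Domain. Its middle control read 945 and 238 in RL4452, against 1101 and 828 in AC Domain, and its 5' control 95.1 and 21.4 in RL4452, against 66.0 and 45.3 in AC Domain, so that both were lowest on the RL4452 replicate 2 array. The part of these controls in the results was not tested.

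Starch synthesis genes are active in the endosperm, and whether other tissues of the seed added to their signal was not tested. As a check of the tissue, 3 of 4 of their probe sets lay above the control level, against 59.4% of all wheat probe sets. Among them AGP-S, a subunit of ADP-glucose pyrophosphorylase, had means of 10.52 in RL4452 and 10.73 in AC Domain on the log2 scale. Genes of the maturing embryo had 3 of 10 probe sets above it and the anther genes RAFTIN 1 of 4. The chloroplast gene rbcL, which marks green tissue, had 8 of 28, and the brightest of these were near the top of the scale, with means of 14.55 and 14.56 in RL4452, against 14.63 and 14.64 in AC Domain. Lipid transfer protein and thionin genes had 5 of 7. Summed over each list, log2 intensity ran from 11.57 to 11.84 in RL4452, against 11.13 to 11.17 in AC Domain, for starch synthesis. Without GBSS-I, the 1 member past the threshold of the test used here, the starch sum overlapped, with 10.67 to 10.97 in RL4452 and 10.88 to 11.01 in AC Domain. The rbcL sum was 15.57 to 15.59 in RL4452, against 15.63 to 15.68 in AC Domain. The sums of the other lists overlapped between the genotypes, with 7.78 to 8.24 in RL4452 and 7.72 to 7.84 in AC Domain for the embryo. For the anther they were 6.37 to 6.47 in RL4452, against 6.23 to 6.46 in AC Domain. For lipid transfer proteins and thionins the sum was 12.48 to 13.86 in RL4452, against 13.23 to 13.71 in AC Domain. That sum was carried mostly by 1 lipid transfer protein probe set, with means of 13.14 in RL4452 and 13.44 in AC Domain. Taken singly, 9 of 10 embryo and 3 of 4 anther probe sets were higher in RL4452 (median differences 0.20 and 0.08). Of all wheat probe sets 58.4% were higher (median 0.05), and most of the embryo and anther probe sets lay below the control level. Of the 7 for lipid transfer proteins and thionins, 6 were lower in RL4452 (median -0.30, range -1.30 to 0.43). Outside the starch list 0 of these probe sets passed the threshold, against 0.800% of all wheat probe sets. Overlapping sums do not show that the tissues matched. The part of these tissues in the avenin-like results was not tested.

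Among the 4 probe sets annotated to avenin-like b, 1 gave a strong signal in both genotypes. Ta.27777.1.S1_at had intensities of 1313 and 1227 on the RL4452 arrays, against 968 and 1128 on the AC Domain arrays. All 4 arrays were far above the controls: the mean log2 intensity was 10.17, which is 5.69 above the control level or 51.7 times its intensity. None of the 23 controls had a mean as high.

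Ta.27777.1.S1_at was slightly brighter in RL4452, and both RL4452 arrays lay above both AC Domain arrays. On the log2 scale the RL4452 arrays averaged 10.31 ± 0.07 and the AC Domain arrays 10.03 ± 0.16 (SD, n = 2 each). The difference, RL4452 minus AC Domain, was 0.28 ± 0.17 (log2, standard error), a 1.21-fold higher signal that did not pass the threshold (limma, adjusted p = 0.704). The 95% interval ran from -0.17 to 0.73, so the data leave room for a signal between 1.12-fold lower and 1.66-fold higher in RL4452. Limma tests every probe set with a spread that borrows from all others, and the threshold was an adjusted p under 0.05.

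The other probe set of avenin-like b above the control level was Ta.27777.1.S2_s_at. Its suffix _s marks probes that match more than one transcript of the design, so its signal need not come from this gene alone. Its intensities were 41.8 and 45.4 on the RL4452 arrays, against 42.9 and 39.9 on the AC Domain arrays. The genotypes overlapped, and the level was 0.93 above the control level on the log2 scale, or 1.90 times its intensity. The difference was 0.07 ± 0.16 (log2, standard error; limma, adjusted p = 0.932), with a 95% interval from -0.35 to 0.50.

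The remaining probe sets of avenin-like b could not be told from background. Ta.27777.1.S2_at, which was designed from the same sequence as Ta.27777.1.S2_s_at, had intensities of 10.1 and 13.7 in RL4452, against 9.67 and 9.17 in AC Domain. No array reached the control level, and 14 of the 23 controls had a higher mean. Both RL4452 arrays were above both AC Domain arrays, with a log2 difference of 0.32 ± 0.21 (standard error; limma, adjusted p = 0.718; 95% interval -0.22 to 0.86). The RL4452 arrays were apart from each other by 0.44 on the log2 scale in size, which is more than the difference between the genotypes.

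Ta.27712.1.S1_at, of another transcript cluster, had intensities of 14.6 and 14.0 in RL4452, against 13.4 and 14.1 in AC Domain. These arrays overlapped, all were below the control level, and 7 of the 23 controls had a higher mean. The difference was 0.06 ± 0.16 (log2, standard error; limma, adjusted p = 0.948; 95% interval -0.35 to 0.47). Thus 1 of the 4 probe sets that the annotation gives to avenin-like b carried a strong signal, 1 a weak one and 2 none above the control level. Which transcripts of the gene family each of them detects was not tested, and the brightness of different probe sets cannot be compared directly because it also depends on the probes.

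**Figure D1:**
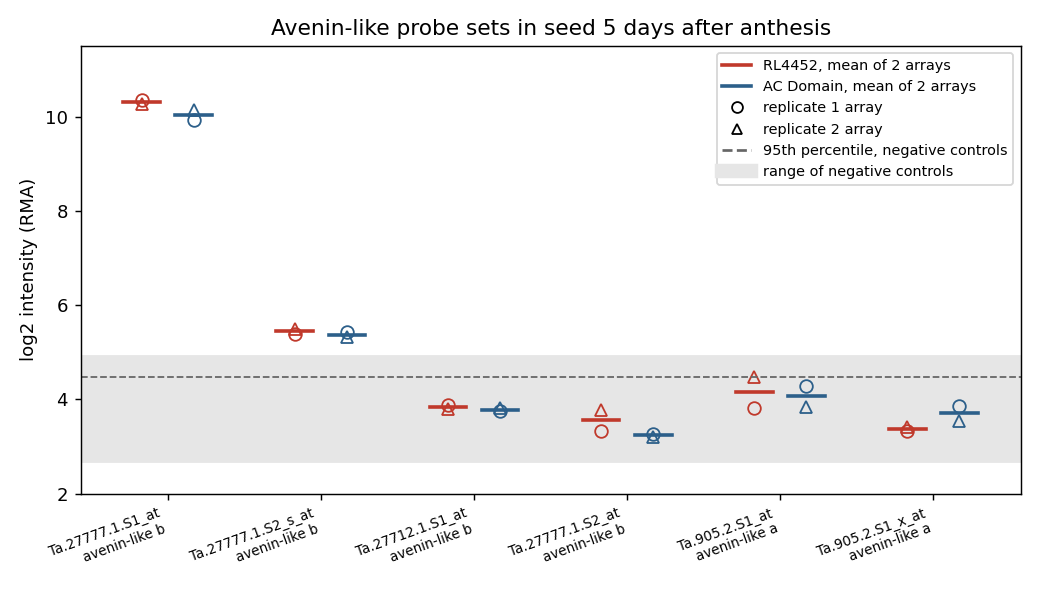
Log2 intensity (vertical axis) of the 6 avenin-like probe sets on each array, RL4452 in red and AC Domain in blue, with the bar at the mean of 2 arrays. The grey band is the range of the 23 negative controls and the dashed line their 95th percentile, 4.48. Ta.27777.1.S1_at stands at about 10 in both genotypes, Ta.27777.1.S2_s_at just above the band, and the other 4 inside it.

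Avenin-like a gave no signal above background by its mean in either genotype. Both of its probe sets were designed from 1 sequence. Ta.905.2.S1_at had intensities of 14.2 and 22.4 on the RL4452 arrays, against 19.4 and 14.4 on the AC Domain arrays. The genotypes overlapped, the RL4452 replicate 2 array was the 1 array above the control level (4.482 against 4.478 on the log2 scale), and 3 of the 23 controls had a higher mean. The difference was 0.09 ± 0.29 (log2, standard error; limma, adjusted p = 0.955), with a 95% interval from -0.66 to 0.85, the widest of the 6.

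Ta.905.2.S1_x_at, whose suffix _x marks probes that may cross-hybridise with other transcripts, was the 1 avenin-like probe set that was dimmer in RL4452. Its intensities were 10.0 and 10.6 in RL4452, against 14.5 and 11.7 in AC Domain. Both RL4452 arrays were below both AC Domain arrays, at a level within the controls, of which 12 had a higher mean and 11 a lower one. The difference was -0.34 ± 0.19 (log2, standard error; limma, adjusted p = 0.673; 95% interval -0.82 to 0.14).

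Of the 6 avenin-like probe sets, 0 passed the threshold, where limma called 0.800% of all wheat probe sets (489, of which 137 were higher and 352 lower in RL4452). None of the 6 had an unadjusted p under 0.05 either, against 9.16% of all probe sets. In that table the smallest difference called was 2.66-fold, and the upper bounds of the avenin-like intervals, in fold higher in RL4452, were 1.66 for Ta.27777.1.S1_at and 1.41 for Ta.27777.1.S2_s_at. Differences were above 0 in 5 of the 6 (median 0.08), against 58.4% of all probe sets (median 0.05). Centring each array on its median moved the second median to -0.01 and left 4 of the 6 above 0. The arrays of the genotypes did not overlap in 3 of the 6, against 39.9% of all probe sets. In RL4452 2 were higher and 1 was lower, where 24.0% and 15.9% of all probe sets were placed that way.

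The size of the difference varied between the pairs of arrays that shared a project. For Ta.27777.1.S1_at it was 0.44 between the replicate 1 arrays and 0.12 between the replicate 2 arrays, both higher in RL4452. For Ta.27777.1.S2_s_at it was -0.04 and 0.19, so the pairs went opposite ways. For Ta.905.2.S1_at the pairs were also opposed, with -0.45 and 0.64. In the other 3 the pairs gave 0.06 and 0.58 for Ta.27777.1.S2_at, 0.12 and -0.01 for Ta.27712.1.S1_at, and -0.53 and -0.14 for Ta.905.2.S1_x_at. Without the RL4452 replicate 2 array, whose wash record is marked as aborted, Ta.27777.1.S1_at had 0.33, Ta.27777.1.S2_s_at 0.01 and Ta.27777.1.S2_at 0.10. Ta.905.2.S1_at turned to -0.23. Without the RL4452 replicate 1 array, Ta.27777.1.S2_at had 0.54, the highest of the 4 such fits. There RL4452 is represented by its replicate 2 array alone. Ta.905.2.S1_x_at ran from -0.49 to -0.18 with 1 array left out.

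**Figure D2:**
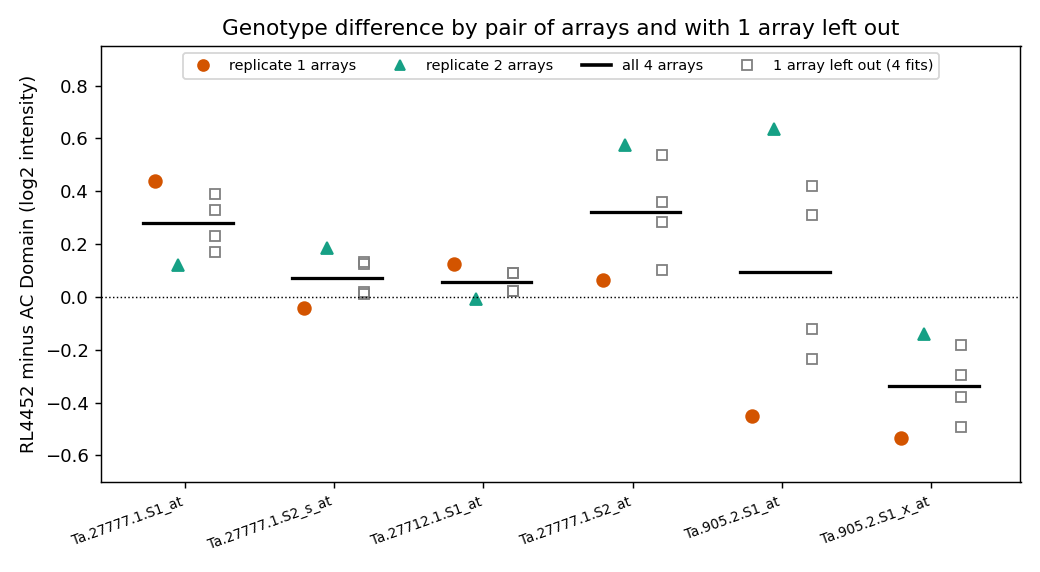
RL4452 minus AC Domain in log2 intensity (vertical axis) for each avenin-like probe set, between the replicate 1 arrays (circles), between the replicate 2 arrays (triangles), over all 4 arrays (bars) and with 1 array left out (squares). Ta.27777.1.S1_at is above 0 in every one of these, and Ta.905.2.S1_at lies on both sides of 0.

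The gliadins and low-molecular-weight glutenins are relatives of the avenin-like proteins. They were found by gene symbol and synonym among the probe sets annotated with 1 gene, so other prolamins on the array may be missing. The list held 11 probe sets of 6 genes. Of these, 3 had a mean above the control level, 9 were higher and 2 lower in RL4452 (58.4% of all probe sets were higher), and the median difference was 0.16 on the log2 scale. In limma 0 passed the threshold, against 0.800% of all probe sets, and 1 had an unadjusted p under 0.05, against 9.16%. The arrays did not overlap in 7 of the 11, each of them higher in RL4452, where 24.0% of all probe sets were placed that way. Among the 7, Ta.28632.1.A1_at, Ta.160.1.S1_x_at, Ta.160.2.A1_at and Ta.24114.10.S1_x_at were below the control level on every array. The 3 low-molecular-weight glutenin probe sets were all among the 7 and stand for 1 gene. Of these, Ta.160.2.A1_at and Ta.160.2.S1_x_at were designed from the same sequence, as were Ta.28632.1.A1_at and Ta.28632.1.S1_x_at of the gamma-gliadin gene. The IDs within each pair differ in A1 and S1, and whether both probe sets of a pair detect the mRNA of the gene was not tested.

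The low-molecular-weight glutenin gene LOC543213 had the brightest of these probe sets. Ta.160.2.S1_x_at had intensities of 105 and 103 in RL4452, against 77.4 and 74.0 in AC Domain, a level 1.99 above the control level on the log2 scale. Both RL4452 arrays were above both AC Domain arrays, with a difference of 0.46 ± 0.16 (log2, standard error; limma, adjusted p = 0.492), and the interval, 0.05 to 0.86, overlaps that of Ta.27777.1.S1_at. A second probe set of this gene, Ta.160.1.S1_x_at, was below the control level, with a difference of 0.26.

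The alpha-gliadin gene LOC543211 had intensities of 47.0 and 51.4 in RL4452, against 36.6 and 41.1 in AC Domain, in Ta.15268.1.S1_x_at. This probe set and Ta.160.2.S1_x_at carry the suffix _x, so their signal need not come from the gene named. The difference was 0.34 ± 0.17 (log2, standard error; limma, adjusted p = 0.642). The gamma-gliadin gene LOC543214 was below the control level in all 3 of its probe sets, with differences of 0.27 in Ta.28632.1.A1_at, 0.13 in Ta.28632.1.S1_x_at and -0.16 in Ta.30782.4.S1_at. The arrays of the genotypes overlapped in the last of these and in Ta.28632.1.S1_x_at. Alpha-gliadin probe sets numbered 5, of which 2 had a mean above the control level. Besides Ta.15268.1.S1_x_at this was Ta.24114.1.S1_x_at, only 0.04 above that level on the log2 scale. Its AC Domain arrays, at 4.47 and 4.41, were below the level, and 1 control had a higher mean.

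**Figure D3:**
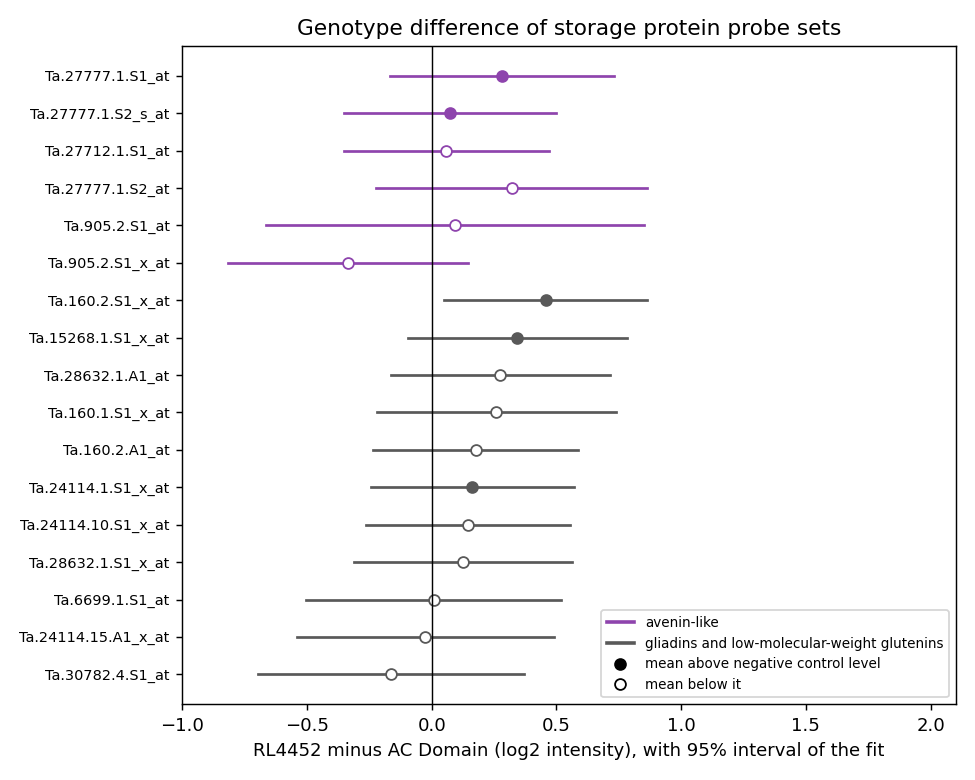
RL4452 minus AC Domain in log2 intensity (horizontal axis) with the 95% interval of the limma fit, for the 6 avenin-like probe sets (purple) and the 11 of gliadins and low-molecular-weight glutenins (grey). Filled points have a mean above the control level. Every avenin-like interval includes 0, and none of the 17 passed the threshold.

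The avenin-like a gene has a close neighbour of the b type. In the order of genes in the IWGSC CS RefSeq v2.1 assembly, LOC542895, whose synonyms include ALPb-7D, stands on the same chromosome as LOC780582 with 2 protein-coding genes between them. No probe set carries the name LOC542895 in the annotation used here, and whether probe sets of avenin-like b also detect its transcript was not tested.

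Over the 4 arrays, the named probe set above the control level whose pattern was most like that of Ta.27777.1.S1_at was Ta.27192.1.S1_s_at of LOC732713 (synonym H2A-3), a core histone gene. The root mean square distance between their log2 values, each centred on its own mean, was 0.03. LOC606370 followed with 0.05 and LOC542863 with 0.06. Over the 1001 candidates the median distance was 0.27, and 28 lay within 0.1. For Ta.905.2.S1_at, which was itself at background, the nearest were LOC778400 (0.08), LOC606321 (0.09) and LOC542781 (0.10). With 4 arrays these distances are a description.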

How the data were processed

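Each sample was hybridised to 1 Affymetrix wheat GeneChip. The values are probe set intensities that the authors computed with RMA, per the submitters' processing notes, and deposited on a linear scale; the set of arrays normalised together is not stated. The deposited run files hold other, textual records, and only the project and the wash record were read from them.

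The intensities were log2-transformed without further normalisation. After leaving out 175 control probe sets, limma 3.58.1 (R 4.3.3) was fitted to all 61115 wheat probe sets with 1 term for genotype, and its two-sided p-values were adjusted over all of them (Benjamini-Hochberg). The fit had 2 residual degrees of freedom and took 2.97 from the prior. The number of arrays limits the precision: with 2 arrays against 2, an exact permutation p cannot go below 0.333. The script was tested on simulated data. Negative controls were the 23 Tag and TrpnX probe sets.

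Names came from the platform annotation, with 1 gene for each of 1273 probe sets, 771 genes in all, 770 of them found in the RefSeq table. The text names every avenin-like probe set, the other storage protein probe sets with the 4 smallest p-values and the 2 brightest, and the 3 most alike patterns per gene. Further storage protein probe sets are named where a gene or a limit is described. Members and lists were chosen with earlier results of these data known.

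Arrays with the same replicate number shared a project in the run files, which is where the pairing comes from, and their deviations from the means of their genotypes correlated (r = 0.398 over probe sets, not independent replicates). Alternatives were a replicate block, other scalings, a filter on dim probe sets, an intensity trend, an added constant of 16 on the linear scale, other control levels and leaving out each array. The labels call the replicates biological.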

Additional observations from a re-analysis of the deposited data

How the results depend on the processing

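Over 56 recomputed differences of the 6 avenin-like probe sets, 0 passed the threshold and 4 changed sign. In this balanced layout the replicate block, the intensity trend and the filter on dim probe sets cannot change a difference, only its p-value. Their share of the 56 is therefore no test of its size or sign. Ta.27712.1.S1_at had -0.028 after quantile normalisation and -0.0019 after median centring, and Ta.905.2.S1_at had -0.23 without RL4452 replicate 2 and -0.12 without AC Domain replicate 2 (-0.23 to 0.42 with 1 array left out). Ta.27777.1.S1_at ran from 0.17 to 0.39 and Ta.27777.1.S2_s_at from 0.01 to 0.13. With the replicate block, Ta.27777.1.S1_at kept its difference of 0.28 (limma, adjusted p = 0.568), no avenin-like call changed, and 667 wheat probe sets passed over the whole table, against 489 without the block. With 1 array left out, 0 to 1031 passed: limma called 1031 without RL4452 replicate 1, 998 without RL4452 replicate 2, and 0 without AC Domain replicate 1 or 2 (2999 and 2441 at an unadjusted p under 0.05), where the spread comes from the 2 RL4452 arrays alone. The median difference of gliadins and low-molecular-weight glutenins ran from 0.10 after median centring to 0.20 without AC Domain replicate 1. The number of avenin-like probe sets above the control level was 2 with each of the other control levels, after quantile normalisation and with any 1 array left out, and 1, Ta.27777.1.S1_at, against the 95th percentile of 64 reporter gene probe sets (6.04 on the log2 scale), an alternative chosen after seeing the data. The filter on dim probe sets gave values for Ta.27777.1.S1_at and Ta.27777.1.S2_s_at alone, since the other 4 lay below the control level on at least 3 arrays.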
